A study of Mus musculus with 56 samples.

Results

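The IgLON family comprises 5 mouse genes, Lsamp, Opcml, Ntm, Negr1 and Iglon5, out of 23600 genes with a single symbol on any of the arrays of the study. They were taken by name: every probe set whose platform annotation held 1 of these symbols and no other was used, which gave 10 of 34958 such probe sets on the 3' arrays (Mouse430_2), 5 of 21218 on the earlier gene-level arrays (MoGene 1.1 ST) and 6 of 23521 on the later gene-level arrays (MoGene 2.1 ST). RNA came from cortical neurons of C57BL6 mouse embryos of embryonic day 13 to 15, kept for 7 days in vitro before an inhibitor of topoisomerases, another agent or its vehicle was added for 24 or 72 h. A topoisomerase is an enzyme that relieves the twist built up in DNA by transcription and replication, and the drug and shRNA groups address how blocking or depleting one changes gene expression in neurons.

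Topotecan, which traps topoisomerase I on DNA, was given at 300 nM to the neurons of 3 of the 3' arrays, and 3 others had its vehicle. ICRF-193, which blocks topoisomerase II, was given at 3 µM on 3 more, with a separate vehicle on the last 3. On the later gene-level arrays, 6 had 1 µM topotecan and 6 vehicle, 3 had 10 µM irinotecan, another inhibitor of topoisomerase I, 1 had topotecan for 24 h and 1 had the same with the drug then washed out. Irinotecan, the 24 h array and the washout array shared 2 vehicle arrays. Lentiviral short hairpin RNAs (shRNAs) against Top1, against Top2b and a scrambled control shRNA had 3 arrays each of this type. Single arrays of it carried DRB (100 µM), an inhibitor of transcript elongation, and its vehicle, and the oxidants hydrogen peroxide (100 µM) and paraquat (10 µM), whose 2 vehicle arrays are shared. The earlier gene-level arrays formed a dose series of 3 vehicle arrays, 1 topotecan array each at 3, 30, 150, 500 and 1000 nM, and 2 at 300 nM. No source used here says that replicates were separate cultures, so the spread behind each p is that between arrays and may be technical. The labels do not say which groups were treated for 24 and which for 72 h, save where a title gives 24 h.

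IgLON proteins are members of the immunoglobulin superfamily that a glycosylphosphatidylinositol (GPI) lipid anchor holds to the outer face of the neuronal membrane. They bind one another in pairs, within one membrane or across a cell contact, and in cultured neurons they act on neurite growth and on the number of synapses. Metalloproteases can release them from the cell surface.

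The family holds some of the longest genes of the mouse genome and 1 short one. In the RefSeq annotation of GRCm38.p6, Lsamp spans 2200 kb on chromosome 16, Opcml 1130 kb and Ntm 969 kb on chromosome 9, Negr1 755 kb on chromosome 3, and Iglon5 17.3 kb on chromosome 7. Opcml and Ntm lie next to each other, 69.3 kb apart, with 0 annotated genes between them. The family has 7 RefSeq promoter windows, each from 250 bases before a transcription start to 50 bases after it. Those of Lsamp, Negr1 and Iglon5 are shown. Lsamp starts at a far and a near site 1550 kb apart and had 2 probe sets on the later arrays. With no probe positions given, neither probe set could be tied to a start. Negr1 and Iglon5 set the long and the short members side by side. Capitals mark CG dinucleotides, and each sequence runs 5′ to 3′ on the gene's strand.
Lsamp far start, chr16:39984114-39984413, plus strand: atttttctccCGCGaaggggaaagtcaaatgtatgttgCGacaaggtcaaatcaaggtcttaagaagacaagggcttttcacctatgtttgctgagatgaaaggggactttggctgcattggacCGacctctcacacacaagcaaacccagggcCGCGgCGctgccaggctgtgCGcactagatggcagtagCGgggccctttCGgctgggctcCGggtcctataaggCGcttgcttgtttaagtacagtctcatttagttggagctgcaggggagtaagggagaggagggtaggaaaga
Lsamp near start, chr16:41532576-41532875, plus strand: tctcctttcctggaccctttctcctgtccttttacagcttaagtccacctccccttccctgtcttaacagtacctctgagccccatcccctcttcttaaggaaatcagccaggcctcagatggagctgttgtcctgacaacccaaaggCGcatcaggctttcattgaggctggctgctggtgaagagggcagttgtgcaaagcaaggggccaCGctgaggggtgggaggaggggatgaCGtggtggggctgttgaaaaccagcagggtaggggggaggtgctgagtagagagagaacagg
Negr1, chr3:156561544-156561843, plus strand: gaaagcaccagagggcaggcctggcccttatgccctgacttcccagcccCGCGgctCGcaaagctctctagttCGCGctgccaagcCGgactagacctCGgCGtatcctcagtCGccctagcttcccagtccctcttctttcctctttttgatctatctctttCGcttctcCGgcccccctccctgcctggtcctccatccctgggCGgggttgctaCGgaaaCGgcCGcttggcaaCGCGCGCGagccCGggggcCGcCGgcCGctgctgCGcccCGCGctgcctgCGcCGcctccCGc
Iglon5, chr7:43490162-43490461, minus strand: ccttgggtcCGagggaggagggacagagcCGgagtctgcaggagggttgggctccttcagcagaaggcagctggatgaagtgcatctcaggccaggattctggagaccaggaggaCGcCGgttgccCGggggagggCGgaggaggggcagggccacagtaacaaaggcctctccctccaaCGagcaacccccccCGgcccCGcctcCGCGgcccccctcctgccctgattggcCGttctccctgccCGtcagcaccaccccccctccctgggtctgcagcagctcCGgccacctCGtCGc
The far start of Lsamp lies 2200 kb from the end of the gene and the near start 649 kb from it. The 2 starts of Ntm lie 419 and 418 kb from the end of that gene, so neither is the start of its full span of 969 kb. The windows held 12 CG dinucleotides at the far and 3 at the near start of Lsamp, 9 at Opcml, 2 and 19 at the 2 starts of Ntm, 29 at Negr1 and 16 at Iglon5, where the median of 32851 mouse promoter windows was 7. The letters TATAAA, searched on both strands, were in 0 of the 7 windows and in 13.6% of all windows. CCAAT, searched likewise, was in the windows of the far Lsamp start, Opcml, 1 Ntm start and Iglon5, and in 37.4% of all windows. The CG count of Iglon5 lay inside the range of the long members, and a match or its absence is a description of these letters alone.

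All values below are log2 of the deposited intensity, and levels of different probe sets are not compared, since each probe has its own brightness. Markers of neurons were above the 40th percentile of probe sets on every array type (10 of 10 markers, or 9 of 9 on the earlier type), as the label of cortical neurons asks. The arrays also carried astrocyte RNA, with 9 of 10 astrocyte markers above that limit on each type. Of 8 microglial markers, 5, 3 and 4 were above it on the 3', the earlier and the later arrays. The limit leaves most probe sets above it by definition. The microglial counts are near or below that share and do not by themselves show microglial RNA. Mean intensities of the columns fell into separate sets, of 571 to 577.3 (ICRF-193 and its vehicle) and 682.3 to 698.3 (topotecan at 300 nM and its vehicle) on the 3' arrays, and of 137.8 to 143.7, 177.5 to 183.3 and 201.5 to 211 on the later ones, so every treatment is set only against its own control. Replicate 1 of the 3 shRNA groups lay in another such set than replicates 2 and 3. Of the 21 IgLON probe sets, only Iglon5 1456463_at on the 3' arrays had group means below the 40th percentile of its array type, 6.39, at 6.09 with ICRF-193 and 5.93 with its vehicle.

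Topotecan at 300 nM lowered the 4 long IgLON genes to between 18.8 and 32.1% of their level in vehicle, while neither probe set of Iglon5 passed the test. Lsamp, the limbic system-associated membrane protein, stood at 9.65, 9.28 and 9.16 in the topotecan arrays against 11.45, 11.81 and 12.06 in the vehicle arrays on probe set 1435895_at. On 1455636_at it stood at 8.00, 7.67 and 7.81 with topotecan against 9.58, 9.59 and 9.53 with vehicle. Every topotecan array was below every vehicle array on both probe sets. In the fit with limma, a moderated linear model over all 34958 probe sets with 2-sided, Benjamini-Hochberg adjusted p and a threshold of 0.05, Lsamp fell 5.31-fold (-2.41 ± 0.19 SE, adjusted p = 0.00211) and 3.34-fold (-1.74 ± 0.11, adjusted p = 0.00209).

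Opcml, first purified as an opioid-binding membrane protein, stood at 8.95, 8.81 and 8.59 with topotecan against 10.57, 10.95 and 11.12 with vehicle on 1435612_at. On 1457446_at the topotecan arrays had 9.44, 9.36 and 9.20 and the vehicle arrays 11.25, 11.83 and 12.06. The groups were again apart, and Opcml fell 4.28-fold (-2.10 ± 0.17, adjusted p = 0.00211) and 5.21-fold (-2.38 ± 0.20, adjusted p = 0.00265). Negr1, which acts on neurite growth and in human lies near variants associated with body mass, had 9.75, 9.58 and 9.44 with topotecan against 11.45, 11.61 and 12 with vehicle, a 4.27-fold fall (-2.10 ± 0.16, adjusted p = 0.00211).

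Ntm encodes neurotrimin, a neuronal adhesion protein that acts on neurite outgrowth. Its 3 probe sets averaged 9.62 ± 0.10, 10.17 ± 0.08 and 10.14 ± 0.06 in the topotecan arrays against 11.55 ± 0.46, 12.09 ± 0.53 and 11.78 ± 0.50 in the vehicle arrays (SD, n = 3 each) on 1426282_at, 1426283_at and 1458492_x_at. All topotecan arrays were below all vehicle arrays, and vehicle replicate 1 was the lowest vehicle array, at 11.03, 11.48 and 11.21. Ntm differed by -1.93 ± 0.22 (adjusted p = 0.00796), -1.92 ± 0.24 (adjusted p = 0.0119) and -1.64 ± 0.23 (adjusted p = 0.0164). The last 2 probe sets missed the threshold without topotecan replicate 2, topotecan replicate 3 or vehicle replicate 2 (adjusted p up to 0.0817), at falls of 1.46 or more.

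Iglon5, known in human as the target of autoantibodies in a disease of sleep and movement, stood at 9.56, 9.58 and 9.38 with topotecan against 9.26, 9.53 and 9.18 with vehicle on 1458997_at. The groups overlapped, with a difference of 0.19 ± 0.13 (95% interval -0.11 to 0.48, adjusted p = 0.542). The dim probe set 1456463_at had 6.40, 6.35 and 6.79 with topotecan against 6.38, 6.37 and 6.52 with vehicle (difference 0.09, adjusted p = 0.815). In all, 8 of 10 IgLON probe sets were called lower and 0 higher, where 1.93% of all probe sets were called lower and 0.709% higher. The 8 also had every topotecan array below every vehicle array, as 9.14% of all probe sets did. The family's median difference was -1.92 and that of all probe sets 0.04. The summed intensity of 10 astrocyte markers lay between 21425 and 27541 in the topotecan arrays and between 37820 and 44951 in the vehicle arrays, with 4 of the 10 called lower, and that of 10 neuronal markers between 49241 and 57547 with topotecan and 54693 and 71740 with vehicle, with 0 of 10 called. Excitatory neuron markers summed to between 7138 and 9217 with topotecan and between 5739 and 7038 with vehicle, with Slc17a6 (0.98) called higher. Fibroblast and meningeal markers summed to between 11141 and 17947 with topotecan and between 19547 and 33518 with vehicle. The part of these cell types in the fall of the IgLON genes was not tested. In such bulk RNA fewer cells of a type and less RNA per cell cannot be told apart.

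**Figure D1:**
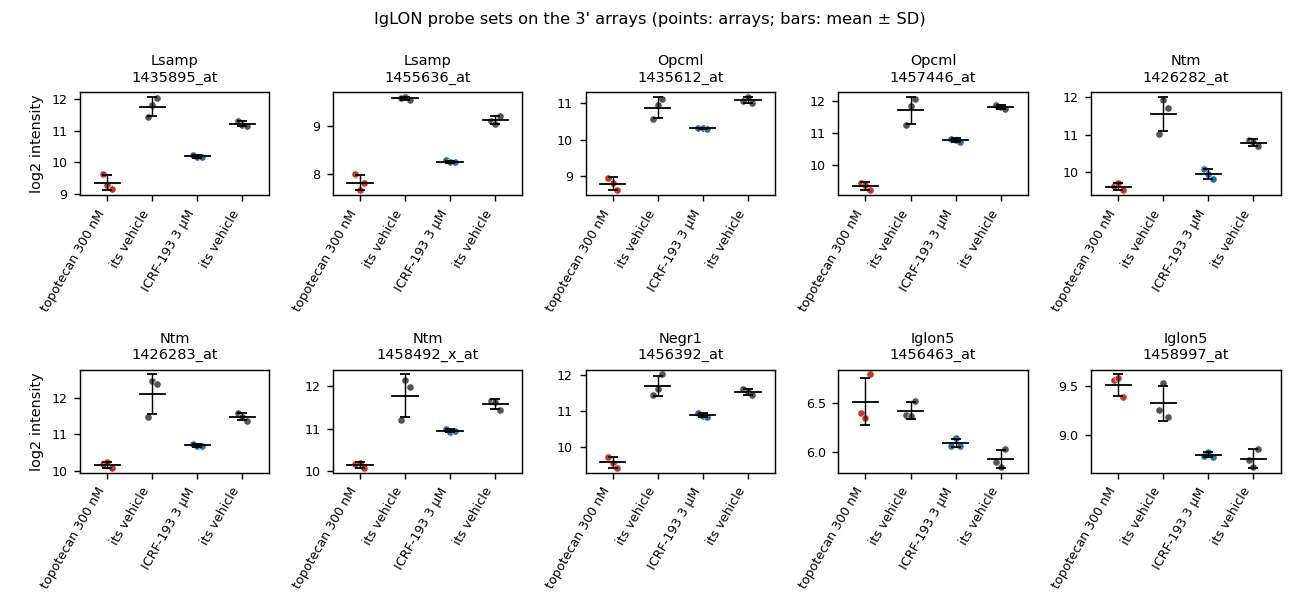
Log2 intensity (y axis) of each IgLON probe set on the 3' arrays, 1 panel per probe set, with 1 point per array and bars for mean ± SD (n = 3 each). With topotecan at 300 nM and with ICRF-193 at 3 µM all arrays lie below their vehicle arrays in the 8 panels of Lsamp, Opcml, Ntm and Negr1, and neither Iglon5 panel passed the test.

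ICRF-193 at 3 µM lowered the same 8 probe sets, to between 48.8 and 65.2% of vehicle. Lsamp 1435895_at had 10.23, 10.16 and 10.17 with ICRF-193 against 11.31, 11.19 and 11.16 with vehicle, and fell 2.05-fold (-1.03 ± 0.06, adjusted p = 0.000427). Opcml 1457446_at had 10.82, 10.80 and 10.71 with ICRF-193 against 11.87, 11.81 and 11.76 with vehicle, also a 2.05-fold fall (-1.03 ± 0.05, adjusted p = 0.000427). Negr1 had 10.94, 10.87 and 10.84 with ICRF-193 against 11.60, 11.53 and 11.43 with vehicle, and fell 1.55-fold (-0.63 ± 0.06, adjusted p = 0.00245). No array of these 3 probe sets crossed into the other group. The other Lsamp probe set fell by 0.86, the other Opcml probe set by 0.77, and the 3 Ntm probe sets by 0.83, 0.77 and 0.62 (adjusted p = 0.000622 to 0.00437).

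Iglon5 did not pass the test with ICRF-193 either. On 1458997_at it had 8.78, 8.82 and 8.78 with ICRF-193 against 8.74, 8.67 and 8.86 with vehicle (difference 0.04, 95% interval -0.10 to 0.18, adjusted p = 0.746), with groups that overlapped. On the dim 1456463_at, 6.07, 6.14 and 6.07 with ICRF-193 all lay above 5.90, 5.85 and 6.03 with vehicle (difference 0.16, adjusted p = 0.173). Of all probe sets, 2.83% were called lower and 2.15% higher with ICRF-193, against 8 and 0 of the 10 IgLON probe sets. These 8 did not overlap with vehicle, as 13.4% of all probe sets did in this direction. Astrocyte markers summed to between 24087 and 26769 with ICRF-193 and between 32442 and 36135 with vehicle, with 5 of 10 called lower. Neuronal markers summed to between 61974 and 64780 with ICRF-193 and between 58793 and 61922 with vehicle, with Nefm (0.56) and Nefl (0.37) called higher. Excitatory neuron markers summed to between 10049 and 10824 with ICRF-193 and between 8715 and 9402 with vehicle, with Slc17a6 (0.56) and Neurod2 (0.34) called higher. Interneuron markers summed to between 6168 and 6443 with ICRF-193 and between 6633 and 6889 with vehicle. Npy (-0.84) was called lower, by about as much as the IgLON genes, and Sst (0.36) higher. The part of these cell types was not tested.

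The fall with topotecan at 300 nM was larger than that with ICRF-193 for Lsamp, Opcml and Negr1, by a limma contrast of the effects over the 12 arrays. The difference of effects, topotecan minus ICRF-193, was -1.38 ± 0.21 and -0.88 ± 0.12 for the Lsamp probe sets (adjusted p = 0.00980 and 0.00578), -1.33 ± 0.18 and -1.35 ± 0.23 for Opcml (adjusted p = 0.00585 and 0.0160) and -1.46 ± 0.18 for Negr1 (adjusted p = 0.00366). The call of Opcml 1457446_at was lost without any of 4 single ICRF-193 or vehicle arrays (adjusted p of at most 0.0582). For Ntm the differences of -1.09, -1.15 and -1.02 missed the threshold (adjusted p = 0.0570, 0.0706 and 0.0910), and passed it without topotecan vehicle replicate 1 (adjusted p of at most 0.000952). Iglon5 differed by 0.15 ± 0.14 and -0.07 ± 0.16 (adjusted p = 0.752 and 0.913). With 5 of 10 IgLON probe sets called lower, the shares over all probe sets were 1.04% lower and 0.395% higher. Drug, dose and experiment cannot be told apart in this contrast.

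Topotecan at 1 µM was measured on 12 of the later arrays, and each long IgLON gene was at 16.8 to 29.8% of its vehicle level. Negr1 had a lowest, median and highest value of 7.27, 7.72 and 8.07 in the topotecan arrays and of 9.98, 10.35 and 10.41 in the vehicle arrays, a 5.97-fold fall (-2.58 ± 0.12, adjusted p = 2.77e-09). Lsamp 17325671 had 6.19, 6.36 and 6.86 with topotecan and 8.23, 8.85 and 8.99 with vehicle, a 5.07-fold fall (-2.34 ± 0.13, adjusted p = 2.14e-08). Its other probe set, 17325663, had 5.82, 6.15 and 6.55 with topotecan and 7.41, 7.92 and 8.23 with vehicle, a 3.35-fold fall (-1.74 ± 0.14, adjusted p = 4.60e-07). The groups did not overlap for any of these.

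Opcml had a lowest, median and highest value of 7.70, 8.05 and 8.20 with topotecan and 9.84, 10.34 and 10.64 with vehicle, and fell 4.97-fold (-2.31 ± 0.13, adjusted p = 1.37e-08). Ntm had 6.67, 6.95 and 7.30 with topotecan and 8.69, 9.01 and 9.35 with vehicle, and fell 4.08-fold (-2.03 ± 0.13, adjusted p = 6.37e-08). The 5 probe sets of the long genes were called lower, where 12% of all probe sets were called lower and 17.2% higher, and all 5 had every topotecan array below every vehicle array, where 6.8% of all probe sets did.

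Iglon5 had 7.26, 7.59 and 7.72 in the topotecan arrays at 1 µM and 7.31, 7.94 and 8.04 in the vehicle arrays. The difference of -0.29 ± 0.12 missed the threshold (95% interval -0.55 to -0.03, adjusted p = 0.0929), and its groups overlapped through vehicle replicate 4 alone, at 7.31. Without that array, a choice made after seeing the values, Iglon5 differed by -0.39 and passed (adjusted p = 0.00496). Vehicle replicate 4 was the lowest vehicle array for all 6 IgLON probe sets. Neuronal markers summed to between 13622 and 17478 with topotecan and between 16679 and 21098 with vehicle, with 8 of 10 called lower at a median of -0.32, and astrocyte markers to between 2119 and 2414 with topotecan and between 3941 and 4381 with vehicle. The 4 astrocyte markers with the largest change past the test all fell. Aqp4 (-2.74) and Gfap (-2.72) fell by more than any IgLON probe set, Slc1a2 (-1.41) and Slc1a3 (-1.04) by less. Interneuron markers summed to between 1129 and 1726 with topotecan and between 3147 and 4567 with vehicle, with 4 of 7 called lower, Sst (-2.61) and Npy (-1.98) by about as much as the IgLON genes. Excitatory neuron markers summed to between 1309 and 2094 with topotecan and between 1168 and 2115 with vehicle, with 1 of 6 called lower and 2 higher. The part of these cell types was not tested.

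Irinotecan at 10 µM lowered the long members too. Lsamp 17325663 had 5.57, 5.61 and 5.34 with irinotecan against 7.91 and 8.12 in the 2 vehicle arrays, and fell 5.70-fold (-2.51 ± 0.12, adjusted p = 0.00021). Negr1 had 8.23, 8.13 and 8.03 with irinotecan against 10.48 and 10.48 with vehicle, and fell 5.10-fold (-2.35 ± 0.10, adjusted p = 0.00016). Opcml had 8.09, 8.02 and 7.88 with irinotecan against 10.21 and 10.38 with vehicle, and fell 4.91-fold (-2.30 ± 0.11, adjusted p = 0.000204). The treated arrays were far below both vehicle arrays in each case.

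Ntm had 7.45, 7.14 and 7.71 with irinotecan against 8.88 and 9.04 with vehicle, a 2.89-fold fall that was the smallest among the long members here (-1.53 ± 0.17, adjusted p = 0.00324). Lsamp 17325671 fell 5.12-fold (-2.36 ± 0.16, adjusted p = 0.000498). Iglon5 had 8.33, 8.17 and 8.16 with irinotecan against 7.99 and 8.07 with vehicle, so that all treated arrays were above, at a difference of 0.19 that missed the threshold (95% interval -0.04 to 0.42, adjusted p = 0.287). The 5 long probe sets were called lower, where 5.1% of all probe sets were called lower and 4.47% higher, and had all treated arrays below both vehicle arrays, as 17.4% did. Neuronal markers summed to between 19096 and 19356 with irinotecan and between 20008 and 20808 with vehicle, with 1 of 10 called lower, and astrocyte markers to between 2023 and 2167 with irinotecan and between 2177 and 2627 with vehicle, with 3 of 10 called lower. Interneuron markers stood further apart, with sums of 1395 to 1803 with irinotecan and 2810 to 3020 with vehicle and 5 of 7 called lower, among them Npy (-1.46), Sst (-1.10), Slc32a1 (-0.76) and Gad1 (-0.57). Excitatory neuron markers summed to between 2463 and 2488 with irinotecan and between 2035 and 2075 with vehicle. The part of these cell types in the IgLON falls was not tested.

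In the array with 24 h of topotecan the long members were low, and after washout they stood within 0.18 of their vehicle mean. These comparisons rest on 1 treated array each and have no test or replicate check. Lsamp 17325663 stood at 5.68 in the 24 h array and 7.84 in the washout array, against 7.91 and 8.12 with vehicle. Negr1 stood at 8.17 in the 24 h array and 10.35 in the washout array, against 10.48 in both vehicle arrays. For both genes the 24 h array was far below both vehicle arrays and the washout array was just under the lower one.

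As differences from the vehicle mean, the 24 h array was at -2.34 and -2.06 for the Lsamp probe sets, -1.73 for Opcml, -1.49 for Ntm and -2.31 for Negr1. The washout array was at -0.18 and -0.15 for Lsamp, -0.11 for Opcml, -0.04 for Ntm and -0.13 for Negr1. Iglon5 was at 0.35 in the 24 h array and -0.15 in the washout array. Past 2-fold lower were 5 of 6 IgLON probe sets in the 24 h array, against 1.52% of all probe sets, and 0 of 6 in the washout array, against 0.0595%. None was past 2-fold higher, where 0.319% of all probe sets were at 24 h and 0.0723% after washout. Irinotecan, the 24 h array and the washout array share their vehicle arrays, so these differences are not independent of one another. The length of the washout and the dose of these 2 arrays are not given in the labels.

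**Figure D2:**
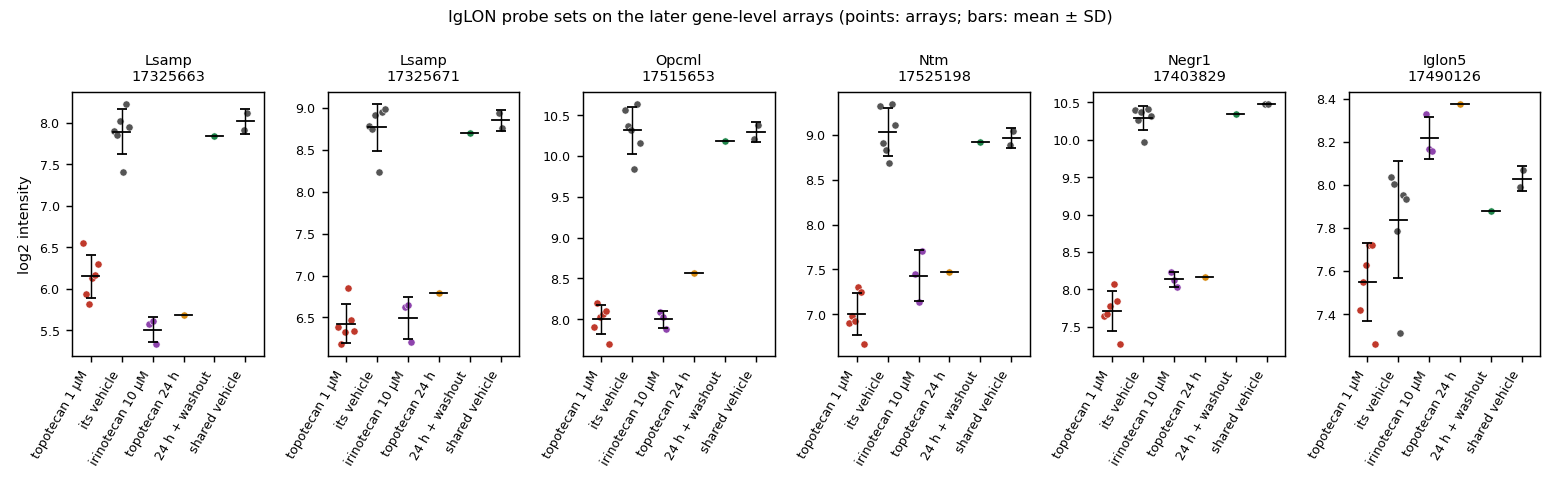
Log2 intensity (y axis) of each IgLON probe set on the later gene-level arrays, with 1 point per array and bars for mean ± SD where a group has more than 1 array (n = 6 for topotecan at 1 µM and its vehicle, 3 for irinotecan, 1 each for topotecan 24 h and washout, 2 for the vehicle these last 3 groups share). Each drug is read against its own vehicle only, since these arrays lie in separate intensity sets; in the Lsamp, Opcml, Ntm and Negr1 panels the drug arrays are far below vehicle and the washout array is near it.

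In the dose series the long members stood lower at the higher doses of topotecan, from 150 nM on. Opcml stood at 11.58, 11.64 and 11.31 in the vehicle arrays, 11.43 at 3 nM, 11.23 at 30 nM, 10.89 at 150 nM, 10.56 and 10.64 at 300 nM, 10.28 at 500 nM and 9.30 at 1000 nM. Ntm stood at 11.33, 11.33 and 11.24 with vehicle, 11.33 at 3 nM, 11.30 at 30 nM, 10.90 at 150 nM, 10.68 and 10.61 at 300 nM, 10.35 at 500 nM and 9.13 at 1000 nM. Both were inside or close to the vehicle range at 3 and 30 nM and below every vehicle array from 150 nM on.

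Lsamp stood at 10.23, 10.19 and 10.64 with vehicle, 10.51 at 3 nM, 10.53 at 30 nM, 10.12 at 150 nM, 9.87 and 9.77 at 300 nM, 9.56 at 500 nM and 8.31 at 1000 nM. Negr1 stood at 11.30, 11.31 and 11.67 with vehicle, 11.62 at 3 nM, 11.63 at 30 nM, 11.29 at 150 nM, 11.01 and 11.01 at 300 nM, 10.60 at 500 nM and 9.60 at 1000 nM. Their vehicle arrays were further apart than those of Opcml and Ntm. Iglon5 stood between 8.57 and 9.26 with vehicle and between 8.88 and 9.29 over all topotecan arrays, with no dose outside the vehicle range by more than 0.03.

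The slope per step of dose rank, over 10 arrays in limma, was -0.31 ± 0.04 for Opcml (adjusted p = 0.00380) and -0.27 ± 0.05 for Ntm (adjusted p = 0.0245). It missed the threshold for Lsamp (-0.25, adjusted p = 0.0594), Negr1 (-0.23, adjusted p = 0.0674) and Iglon5 (0.04, adjusted p = 0.610). That is 2 of 5 IgLON probe sets, where 0.872% of all probe sets were called lower and 0.5% higher. The array at 1000 nM and vehicle replicates 1 and 2 stand apart from the other 7 arrays in their expression values. Within the 7 arrays that hold vehicle replicate 3 and 3 to 500 nM, 4 of the 5 probe sets were called lower, with slopes of -0.23 for Lsamp and -0.21 for Negr1 (adjusted p = 0.00957 and 0.0150). In that subset, chosen with the arrays' values known, 1.72% of all probe sets were called lower. Over log10 of the dose, only Opcml was called (0.283% of all probe sets were called lower), and leaving out vehicle replicate 1 or 2, 3 nM or 500 nM ended the call of Ntm (adjusted p of at most 0.0673).

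Against vehicle replicate 3, the array of the same set, Lsamp was at -0.13, -0.11, -0.52, -0.77, -0.87 and -1.08 over 3, 30, 150, 300, 300 and 500 nM. Against vehicle replicates 1 and 2, the 1000 nM array was at -1.90 for Lsamp and -1.70 for Negr1. From 3 to 500 nM the Lsamp difference was thus largest at 500 nM. Astrocyte markers summed to 5573 at 3 nM, 4952 at 30 nM, 4155 at 150 nM, 3966 and 4160 at 300 nM, 3426 at 500 nM and 9011 at 1000 nM, and to between 4601 and 17419 over the 3 vehicle arrays. From 3 to 500 nM this sum was thus lower at the higher doses as well, and its part in the slopes was not tested.

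**Figure D3:**
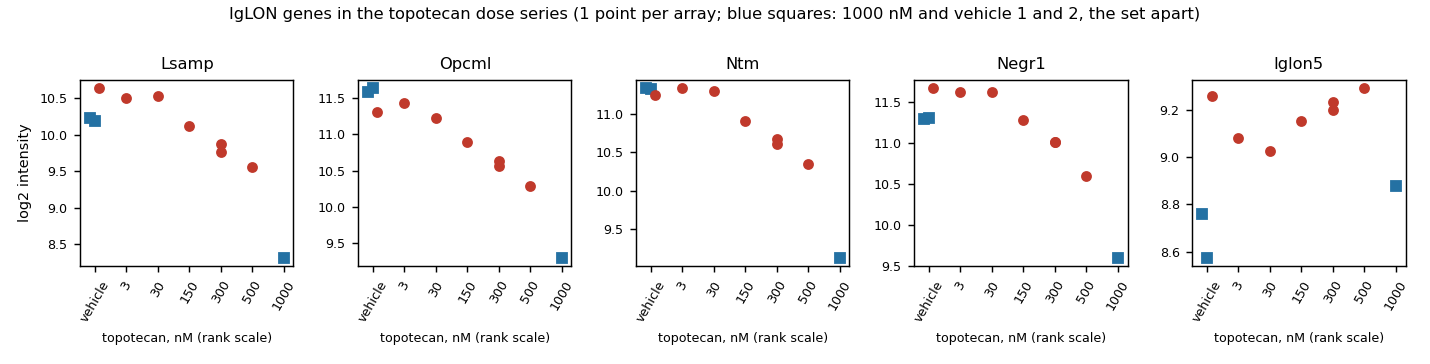
Log2 intensity (y axis) of the 5 IgLON genes in the topotecan dose series, with 1 point per array and the doses at equal steps by rank (x axis, nM). Blue squares are the 1000 nM array and vehicle replicates 1 and 2, which stand apart from the 7 arrays in red; the long members decline from 150 nM on and Iglon5 does not leave the vehicle range by more than 0.03.

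The shRNA arrays were first checked for their targets. Top1 on its probe set stood at 7.62, 8.39 and 8.29 in the arrays labelled Top1 shRNA against 8.98, 8.46 and 8.55 in the control shRNA arrays. Relative to the control of the same replicate number it was at -1.36, -0.07 and -0.27, so that replicate 2 was hardly below its control. Top2b stood at 8.62, 6.87 and 6.80 in the arrays labelled Top2b shRNA against 9.30, 8.39 and 8.17 in the control arrays. Neither target passed the test (Top1 -0.57, adjusted p = 0.410; Top2b -1.19, adjusted p = 0.463). In replicate 1 of the arrays labelled Top1 shRNA, Top2b was at -1.04 to its control as well.

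In the arrays labelled Top1 shRNA the long members were below control by 0.86 to 1.44 on average, and 0 of the 6 IgLON probe sets passed the test. Lsamp 17325671 had 7.91, 6.76 and 7.21 with Top1 shRNA against 9.13, 8.52 and 8.55 with control shRNA (-1.44 ± 0.43, adjusted p = 0.119). Negr1 had 9.40, 8.62 and 9.48 with Top1 shRNA against 10.47, 10.28 and 10.21 with control (-1.15 ± 0.28, adjusted p = 0.0629). Ntm had 7.86, 6.96 and 8.26 with Top1 shRNA against 8.99, 8.90 and 8.91 with control (-1.24 ± 0.42, adjusted p = 0.164). For all 3, each Top1 shRNA array lay below each control array. Over all probe sets, 0.961% were called lower and 1.55% higher, and each-below-each held for 9.01%.

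Lsamp 17325663 had 7.68, 5.99 and 6.55 with Top1 shRNA against 7.83, 7.88 and 7.97 with control (-1.15, adjusted p = 0.164) and was also below control in every array, with replicate 1 at a difference of only -0.15 from its own control, which makes 4 of 6 IgLON probe sets apart from control. Opcml had 9.46, 8.56 and 9.28 with Top1 shRNA against 9.27, 10.31 and 10.30 with control (-0.86, adjusted p = 0.356), and replicate 1 was 0.19 above its own control. Iglon5 had 7.95, 6.99 and 7.30 with Top1 shRNA against 7.29, 7.76 and 7.83 with control (-0.22, adjusted p = 0.995), replicate 1 above and the other two below.

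Same-numbered arrays deviated together, but replicate 3 correlated more with another number (0.40 to 0.44) than with its own (0.36 to 0.41) in every shRNA comparison. Pairing by number is thus not settled, and a block by number cannot be told apart from the array sets. With the replicate number as a block, 4 IgLON probe sets passed in the Top1 shRNA comparison, Lsamp 17325671 (adjusted p = 0.0043), Negr1 (adjusted p = 0.0135), Ntm (adjusted p = 0.0416) and Lsamp 17325663 (adjusted p = 0.0490), where 6.17% of all probe sets were called lower. Within replicates 2 and 3, the set of arrays of like mean intensity, all 6 passed, at -1.65 and -1.55 for Lsamp, -1.39 for Opcml, -1.29 for Ntm, -1.19 for Negr1 and -0.65 for Iglon5 (adjusted p = 0.0259 for Iglon5 and 0.0407 or less for the rest). In that subset, chosen with the arrays' values known, 12.6% of all probe sets were called lower. Those are the 2 replicates in which Top1 itself was at -0.07 and -0.27.

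Top2b shRNA gave 0 calls in limma over all 23521 probe sets (0% lower and 0% higher), with 2230 at an unadjusted p below 0.05. Ntm had 8.82, 7.62 and 7.53 with Top2b shRNA against 8.99, 8.90 and 8.91 with control (-0.94 ± 0.42, adjusted p = 0.514). Lsamp 17325671 had 8.78, 7.49 and 7.40 with Top2b shRNA against 9.13, 8.52 and 8.55 with control (-0.84, adjusted p = 0.642). For Ntm and Negr1 every Top2b shRNA array was below every control array, as were 9.49% of all probe sets. In Ntm and Lsamp 17325671, replicates 2 and 3 were far below their controls and replicate 1 was close to its own. Negr1 was at -0.46, Opcml at -0.58, Lsamp 17325663 at -0.20 and Iglon5 at -0.12. Within replicates 2 and 3 only Lsamp 17325671 passed among the 6 (-1.09, adjusted p = 0.0136), where 4.94% of all probe sets were called lower, and with the replicate block none did, where 2.1% were called lower.

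The effects of Top1 and Top2b shRNA were compared directly, and 0 of 6 IgLON probe sets and 0 of all probe sets (0%, with 700 at an unadjusted p below 0.05) differed in limma. Negr1 was lower in every Top1 shRNA array than in every Top2b shRNA array, as 2.99% of all probe sets were (difference -0.69, 95% interval -1.31 to -0.08, adjusted p = 1.00). Within replicates 2 and 3, Lsamp 17325663 was lower with Top1 shRNA (-1.46, adjusted p = 0.0262), as were 2.42% of all probe sets. Neuronal markers summed to between 9408 and 14054 with Top1 shRNA, 11977 and 16331 with Top2b shRNA and 19841 and 20384 with control shRNA, neither range of the targeted arrays reaching that of control. Their median difference from control was -0.95 with Top1 shRNA and -0.62 with Top2b shRNA, with 0 of 10 called in either. Excitatory neuron markers summed to between 519 and 1077 with Top1 shRNA, 994 and 1244 with Top2b shRNA and 1966 and 2277 with control shRNA, and Slc17a7 (-3.03, adjusted p = 0.0367) and Neurod6 (-2.10, adjusted p = 0.0432) fell with Top1 shRNA. Interneuron markers summed to between 1072 and 1591 with Top1 shRNA, 1594 and 2865 with Top2b shRNA and 2450 and 4799 with control shRNA, with 0 of 7 called in either, while fibroblast and meningeal markers had medians of 1.66 with Top1 shRNA and 1.23 with Top2b shRNA. Their part in the IgLON differences was not tested.

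**Figure D4:**
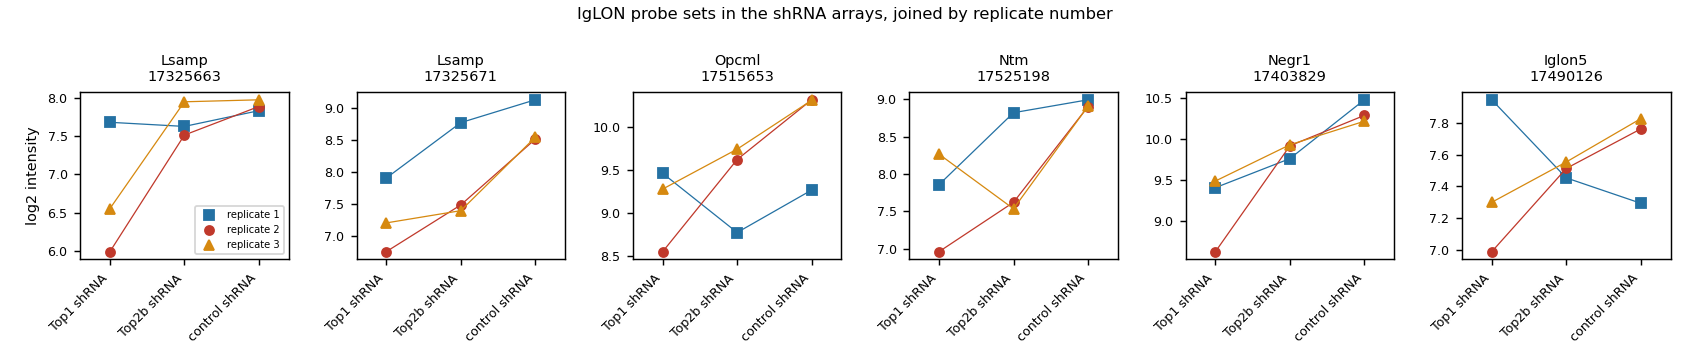
Log2 intensity (y axis) of the 6 IgLON probe sets in the shRNA arrays, with lines that join arrays of the same replicate number (n = 3 per group). Replicates 2 and 3 are lower with Top1 shRNA than with control shRNA in all 6 panels, and replicate 1 is so by more than 1 in the Negr1, Ntm and Lsamp 17325671 panels and lies above its control for Opcml and Iglon5.

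In the single array with DRB, which blocks elongation of transcripts, the short Iglon5 was further below vehicle than Opcml, Ntm and Negr1. Iglon5 stood at 7.48 with DRB against 8.52 in its vehicle array (-1.04). Negr1 stood at 10.11 with DRB against 10.69 with vehicle (-0.57), and Opcml at 10.11 with DRB against 10.69 with vehicle (-0.58). Ntm stood at 9.36 with DRB against 9.82 with vehicle (-0.46).

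The 2 probe sets of Lsamp differed with DRB. On 17325663 it stood at 6.65 with DRB against 8.26 with vehicle (-1.60), and on 17325671 at 9.08 with DRB against 9.49 with vehicle (-0.41). With 1 array on each side there is no test. Past 2-fold lower were 2 of 6 IgLON probe sets, against 11.3% of all probe sets (10.9% were past 2-fold higher), and 8 of 10 astrocyte markers. A new quantile normalization of the pair moved Iglon5 to -0.64 and Lsamp 17325663 to -1.20. Iglon5 was then no longer past 2-fold, and its place among the members is given for the deposited values only.

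The oxidants are read with a limit on their controls. Oxidant vehicle replicate 1 lay below vehicle replicate 2 on all 6 IgLON probe sets, with differences of -0.83 (Ntm) to -1.56 (Negr1), where the median over all probe sets was 0.04. Neuronal markers summed to 15060 in the lower and 27159 in the higher of these 2 arrays. Against the mean of both, hydrogen peroxide was at 0.11 and 0.02 for Lsamp, 0.32 for Opcml, -0.05 for Ntm, 0.46 for Negr1 and -0.01 for Iglon5. The sign depended on the vehicle array, a comparison added after seeing the values: against vehicle replicate 2 alone all 6 were below, between -0.53 and -0.32, and against vehicle replicate 1 alone all 6 were above, between 0.36 and 1.25. Past 2-fold higher against vehicle replicate 1 were Opcml (1.09) and Negr1 (1.25), where 5.03% of all probe sets were.

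Paraquat was at -0.29 and 0.56 for Lsamp, 0.54 for Opcml, 0.37 for Ntm, 0.69 for Negr1 and 0.56 for Iglon5 against the mean of both vehicle arrays. Against vehicle replicate 2 alone it was between -0.22 and 0.05, save for Lsamp 17325663 at -0.86. Against vehicle replicate 1 alone it was above on all 6, by 0.27 for Lsamp 17325663 and 0.78 for Ntm, and past 2-fold for Lsamp 17325671 (1.12), Opcml (1.31), Negr1 (1.47) and Iglon5 (1.07), where 7.76% of all probe sets were past 2-fold higher. Against the mean of both vehicle arrays, no IgLON probe set was past 2-fold lower with either oxidant, where 1.37% of all probe sets were with hydrogen peroxide and 2.7% with paraquat, and none was past 2-fold higher, where 1.12% and 2.27% were. Both oxidants are read from 1 array each, with no test.

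**Figure D5:**
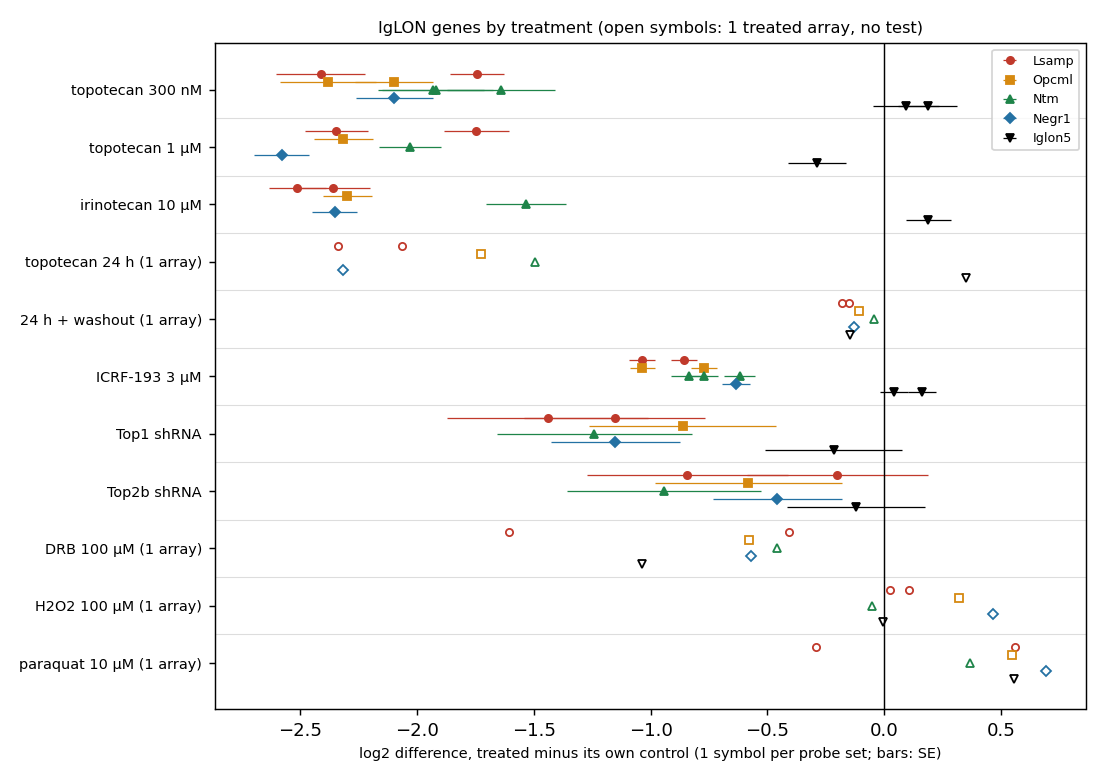
Log2 difference of each treatment from its own control (x axis), with 1 symbol per IgLON probe set, bars for the SE from limma, and open symbols for treatments with 1 array and no test. In the tested comparisons the long members lie between -2.58 and -1.53 with topotecan at 300 nM or 1 µM and irinotecan and between -1.03 and -0.62 with ICRF-193, and Iglon5 lies between -0.29 and 0.19 with these drugs.

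Genes that work with or resemble the IgLON proteins did not move as one group. Of 31 other adhesion genes of the immunoglobulin superfamily, each at its brightest probe set, 0 rose and 6 fell under 300 nM topotecan, and the median was -0.29 against 0.05 for all 18194 genes, of which 351 fell and 178 rose. The largest falls were Cntn5 (-2.73) and Cntn4 (-1.20), contactins with the same kind of GPI anchor, Mdga2 (-2.49), a GPI-anchored partner of neuroligins, and Dscam (-1.35). With ICRF-193, 7 fell and 2 rose at a median of -0.01, led by Cntn5 (-1.39) and Cntn4 (-1.04), where 545 of all 18194 genes fell and 482 rose. With topotecan at 1 µM, 22 of 32 fell and 1 rose at a median of -0.66, and with irinotecan 15 fell and 2 rose at a median of -0.28. Of all 22180 genes, 2714 fell and 3756 rose at 1 µM, and 1119 fell and 1027 rose with irinotecan. Mdga2 had the largest fall of the list with both (-2.66 and -2.89).

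Of 25 genes for assembly and attachment of the GPI anchor, 0 were called with topotecan at 300 nM (median 0.10), and 1 fell with ICRF-193 (Pigs, -0.22). Of 24 on the later arrays, 2 fell and 5 rose with topotecan at 1 µM (median 0.06), and the largest of these were small (Pgap1 0.28, Pigp 0.26, Pigu -0.26, Pigc 0.25). Of all 22180 genes in this comparison 2714 fell and 3756 rose, a like share, so the count is no result about the anchor genes. With irinotecan 0 fell and 6 rose (median 0.16), where 1119 and 1027 of all genes did, led by Pgap1 (0.61), which trims the lipid of the anchor. Of 8 proteases and receptors linked to IgLON proteins, Ncam1 fell with topotecan at 300 nM (-0.86) and at 1 µM (-1.13) and with irinotecan (-0.69). Fgfr2 fell at 1 µM (-0.84), Epha2 and Axl rose (0.85 and 0.46), and Epha2 also rose with ICRF-193 (0.33), all of them receptors; with the arrays labelled Top1 shRNA, Fgfr1 (1.71) and Axl (1.62) rose.

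The 4 long members differ from Iglon5 in gene span, and genes outside the family were counted by span as well. Of 200 other genes that span 500 kb or more, 0 rose and 109 fell under 300 nM topotecan (median -1.20), and of 5718 that span 10 to 30 kb, 14 fell and 71 rose (median 0.09). With ICRF-193 these counts were 99 fallen and 2 risen of 200 (median -0.31) and 100 fallen and 135 risen of 5718 (median 0.02). The medians of the 8 long IgLON probe sets were -2.01 with topotecan at 300 nM and -0.80 with ICRF-193. At 1 µM, 184 of 210 long genes fell (median -1.23) and with irinotecan 178 of 210 (median -1.27), beside medians of -2.31 and -2.35 for the 5 long IgLON probe sets. The other genes entered at 1 probe set each with dim genes kept, and the IgLON medians are over all probe sets of the long members. The sizes of these medians are therefore not a like comparison. The washout array had a median of -0.07 over the 210 long genes, and DRB one of -0.38 over the long genes and -0.03 over the genes of 10 to 30 kb.

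The members were also matched to other genes by pattern, as the distance between their 9 differences on the later arrays (topotecan at 1 µM and 24 h, washout, irinotecan, both shRNAs, DRB and both oxidants) over 13507 genes. Differences that share a control are not independent, so the distances are a description. Only genes outside the family were candidates for the nearest genes. Nearest to Lsamp were Adgrl3 (0.64), Cntnap5a (0.66) and Kcnma1 (0.72). Nearest to Negr1 were Lrrc7 (0.67), Kcnma1 (0.68) and Adgrl3 (0.74), and the neighbours of both spanned 495 to 903 kb. Nearest to Opcml were Erc2 (0.55), Ptprn2 (0.76) and Grid1 (0.81), of 763 to 856 kb. The members Negr1 (0.75) and Lsamp (0.80) were nearer to Opcml than Grid1 was, and Negr1 was also nearer than Ptprn2. Nearest to Ntm were Nell2 (0.50), Grm5 (0.56) and Tafa2 (0.60), of 309 to 551 kb. Nearest to Iglon5 were Zfp84 (0.32), Dus1l (0.34) and Puf60 (0.38), which span 8.87 to 12.9 kb. The long members were 0.75 to 1.51 from one another and 3.39 to 4.50 from Iglon5. The median distance to the 13507 genes was 4.48 for Lsamp, 4.10 for Opcml, 3.57 for Ntm and 4.64 for Negr1. Iglon5 was thus about as far from each long member as the median gene.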

How the data were processed

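Gene expression was measured on 56 Affymetrix arrays of cultured mouse cortical neurons, of which each group has 1 to 6. The deposited values are linear intensities, 1 per probe set and array, that the authors made with Affymetrix Expression Console and RMA, per the submitters' processing notes; versions and the background step are not given in the sources used here. Array types, and apparently experiments within a type, were normalized separately, so tests stay within an experiment and its own control. Groups follow the sample titles, since some sample descriptions name another experiment. No 2 columns of a type were identical. The number of arrays limits the precision.

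Here log2 of the intensity was taken with no new normalization. Probe sets were named by GEO's platform annotation, and symbols were updated by Entrez ID to RefSeq GRCm38.p6, which matched 99.4, 99.8 and 99.2% of probe sets with 1 symbol on the 3', earlier and later arrays. Of 45101, 35556 and 41345 probe sets, 932, 1881 and 1814 had several symbols and 9211, 12457 and 16010 had none, and neither kind was used. The files give no probe positions, so the only coordinates are those of RefSeq genes and promoters.

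Every comparison was fitted with limma 3.58.1 (lmFit and eBayes, R 4.3.3) over all probe sets with 1 symbol, with 2-sided p adjusted by Benjamini-Hochberg over the whole array type and a threshold of 0.05. The shRNA groups were fitted together and share their control. With 1 treated array no test was made, and probe sets past 2-fold were counted. The fits were also run on simulated data with independent noise for each probe set and array. Those data held no array sets and no replicates that deviate together, so they do not test the fits under such structure. The 40th percentile of each array type served as the limit for dim probe sets, which stayed in the fits.

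All IgLON probe sets are named. Of each gene list and comparison, up to 4 genes with the largest change past the threshold are named, at 1 probe set per gene. Per member, the 3 genes outside the family that were nearest in pattern, by Euclidean distance, are named. Top1 and Top2b are always given for the shRNA arrays. The members and lists were chosen with earlier results of these data known.

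Same-numbered arrays deviated together with ICRF-193 (correlations of 0.13 to 0.16) and the shRNAs (0.21 to 0.60), above 0.1 for every number. With ICRF-193 each array correlated best with its own number, as paired arrays would. The fits given for ICRF-193 are unpaired all the same, and the replicate block was run as an alternative only. Under that block the long members kept their ICRF-193 calls. For the shRNAs, replicate 3 correlated more with another number in every comparison (0.40 to 0.44), so pairing by number is not settled there. The numbers were not taken as pairs for topotecan at 300 nM (-0.33 to 0.01) or at 1 µM (-0.29 to 0.17). Irinotecan and its vehicle share only 2 numbers. Alternatives were a new quantile normalization, leaving out dim probe sets, the brightest probe set per gene, log2 of the intensity plus 20, eBayes with trend and robust options, the replicate block, other dose scales and leaving out each array.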

Additional observations from a re-analysis of the deposited data

Results flagged for a closer look

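Vehicle replicate 4 of topotecan at 1 µM stood apart from the other 5 vehicle arrays for 3 IgLON probe sets, by the size of its gap to the next array within the range of its group. It stood at 8.23 for Lsamp 17325671, 9.98 for Negr1 and 7.31 for Iglon5, each the lowest vehicle value. Chance sets about 1 in 20 groups apart in this way. Without it Iglon5 passed the test.

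The effect of topotecan at 300 nM differed from that of ICRF-193 at 3 µM in the limma test of the difference itself, for Lsamp (-1.38 and -0.88), Opcml (-1.33 and -1.35) and Negr1 (-1.46), each measured in 3 treated and 3 vehicle arrays per drug. In each case all topotecan arrays and all ICRF-193 arrays lay below their own vehicle arrays. Drug, dose and experiment cannot be told apart.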

How the results depend on the processing

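The falls of all long members, Ntm included, with topotecan at 300 nM kept their direction under all alternatives. Those at 1 µM and with irinotecan and ICRF-193 kept direction and call. The block and the shRNA arrays moved counts most. Probe sets called over the whole array type, lower and higher together, are given below, and causes of the shifts were not tested. No paired design holds for topotecan at 300 nM, where the replicate block left 1 call of 923 and 0 IgLON probe sets (adjusted p 0.0708 to 0.0962), and 65 of 503 and 0 for the difference from ICRF-193. With 1 brightest probe set per gene there were 480 calls at 300 nM. That setting tests fewer IgLON probe sets, with 4 called at 300 nM, 4 with ICRF-193, 3 for the difference and 4 in the dose series.

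With ICRF-193, 1741 calls became 2907 without dim probe sets, 2684 with log2 of the intensity plus 20 and 3154 with trend and robust options. With irinotecan, 2251 became 3750 without dim probe sets, 3750 with the brightest probe sets, 3952 with the offset, 4352 with trend and robust options and 684 with the replicate block.

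For Top1 shRNA, 590 calls (0 IgLON) became 1358 (2) with quantile normalization, 1466 (1) without dim probe sets, 1579 (2) with the brightest, 1251 (1) with the offset, 1129 (1) with trend and robust options and 2929 (4) with the replicate block. Within replicates 2 and 3, an alternative chosen with the arrays' values known, there were 5778 (6). For Top2b shRNA, 0 calls became 340, 375, 414, 324 and 270 in the same order, 1152 with the replicate block and 2340 (1) within replicates 2 and 3. Between the shRNAs, 0 became 968 (1) within replicates 2 and 3. In the dose series, 291 became 444 (4 IgLON) without dim probe sets, 106 (1) on log10 of the dose and 520 (4) within 7 arrays, chosen likewise. The replicate block changed no other IgLON call.

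Without 1 array at a time, the calls ranged from 158 to 817 at 300 nM (IgLON 6 to 8), 466 to 2133 with ICRF-193 (8), 152 to 1114 for the difference (4 to 8), 5694 to 7722 at 1 µM (5 to 6), 698 to 1378 with irinotecan (5), 0 to 1237 with Top1 shRNA (0 to 2), 0 to 0 with Top2b shRNA and between the shRNAs, and 61 to 307 in the dose series (1 to 2).

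Reversed signs touched only differences that missed the threshold. At 300 nM, Iglon5 1456463_at ranged from -0.047 without topotecan replicate 3 to 0.174 without topotecan replicate 2, and its difference between the drugs from -0.209 without topotecan replicate 3 to 0.012 without topotecan replicate 2. With ICRF-193, Iglon5 1458997_at ranged from -0.0031 without vehicle replicate 2 to 0.091 without vehicle replicate 3. Between the shRNAs, Ntm ranged from -0.583 without Top1 shRNA replicate 3 to 0.12 without Top2b shRNA replicate 1, with 0.07 without Top1 shRNA replicate 2, and was at 0.035 within replicates 2 and 3. Iglon5 ranged from -0.364 without Top1 shRNA replicate 1 to 0.12 without Top1 shRNA replicate 2.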
